A study of Mus musculus with 12 samples.

Results

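The Hoxa genes and 3 genes that act beside them, Meis1, Pbx3 and Eya1, were followed across 4 groups of transduced mouse bone marrow. The 10 genes were taken by symbol from a table of 19910 genes: Hoxa3, Hoxa4, Hoxa5, Hoxa6, Hoxa7, Hoxa9, Hoxa10, Meis1, Pbx3 and Eya1. They were chosen by name with the differences in level between SETBP1 and control libraries already known (SETBP1 against empty, and both against NRAS), so those differences are given below as a description with their standard error (SE) and with no test. The change with NRAS, averaged over SETBP1 status, compares other sums of the libraries and was tested.

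Marrow of female C57BL/6J mice aged 6 to 10 weeks was infected with retrovirus made in 293T17 cells, a human embryonic kidney line used for packaging virus, with supernatants harvested at 48 and 72 h. The empty group carried an empty vector in each of its 2 vector positions, the SETBP1 group carried SETBP1 (D868N) and an empty vector, the NRAS group an empty vector and NRAS (G12D), and the group called both carried SETBP1 (D868N) and NRAS (G12D). Each group had 3 libraries of total RNA, 12 in all, made with a kit for very low RNA input, and the labels call the cells leukemia cells. All groups therefore share retroviral infection, and the mutant genes were supplied by vectors rather than from the mouse's own loci. Whether the replicates are separate mice, infections or cultures is not in the labels, so the p-values measure only the spread between these libraries, which may be technical.

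HOXA proteins are homeobox transcription factors whose genes lie in one cluster and are transcribed in the same direction. In blood formation the cluster is active in stem and early progenitor cells and is shut down as myeloid cells mature, and sustained HOXA9 blocks that maturation. MEIS1 and PBX3 belong to the TALE class of homeobox proteins, which bind DNA together with HOX proteins, and forced expression of Hoxa9 with Meis1 gives acute myeloid leukemia in mice. EYA1 is a transcriptional coactivator with phosphatase activity. SETBP1 is a nuclear protein that binds DNA and the oncoprotein SET, and NRAS is a GTPase that signals to the MAPK cascade.

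On mm10, the build named in the submitters' processing notes, the Hoxa genes described lie together on chromosome 6, all on the minus strand (GENCODE M21). Hoxa10 lies at chr6:52231197-52240854, Hoxa9 at chr6:52223100-52231089, Hoxa7 at chr6:52214491-52221854, Hoxa5 at chr6:52201754-52204587, Hoxa4 at chr6:52189671-52191753, and Hoxa6 at chr6:52206288-52208722, while the longest annotated form of Hoxa3 (chr6:52169062-52213336) reaches over Hoxa4, Hoxa5 and Hoxa6. Meis1 lies at chr11:18879817-19018985, Pbx3 at chr2:34171457-34373142 and Eya1 at chr1:14168954-14310235, also on minus strands. The strand setting used for counting is not given in the sources used here, so reads of overlapping genes cannot be told apart. Other annotated genes overlap 27.1% of the exonic bases of Hoxa3, 16.0% of Hoxa4, 20.4% of Hoxa7 and 1.52% of Hoxa9, and none of those of Hoxa5, Hoxa6 or Hoxa10. Meis1, Pbx3 and Eya1 were compared only with genes that were tested or listed here, and none of these overlaps them. Their overlap with other annotated genes was not examined. The percentages are shares of bases and not of reads, so how far the values of Hoxa3, Hoxa4 and Hoxa7 are affected is not known.

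The start regions of Hoxa9, Hoxa10, Hoxa7 and Meis1 are shown because these genes carry most of the values below and because HOX proteins with TALE partners are known to bind Hoxa and Meis1 loci. RefSeq (GRCm38.p6) gave windows of 300 bases, from 250 before to 50 after a transcript start, for 7 of the 10 genes, with 8 windows in all. Hoxa4, Pbx3 and Eya1 were not matched. Capitals mark the letters TTTATNN, a core bound by HOX proteins of the Hoxa9 and Hoxa10 type, on the strand shown or its complement. The windows, 5′ to 3′ on the minus strand, are chr6:52227321-52227620 for Hoxa9, chr6:52240805-52241104 and chr6:52234890-52235189 for the upstream and downstream starts of Hoxa10, chr6:52218524-52218823 for Hoxa7 and chr11:19018920-19019219 for Meis1.
Hoxa9: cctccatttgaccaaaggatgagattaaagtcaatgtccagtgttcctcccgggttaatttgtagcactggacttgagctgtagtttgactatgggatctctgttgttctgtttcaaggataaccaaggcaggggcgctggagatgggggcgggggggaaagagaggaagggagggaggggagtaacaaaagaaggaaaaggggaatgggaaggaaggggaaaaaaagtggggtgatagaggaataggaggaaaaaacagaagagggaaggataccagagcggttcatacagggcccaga
Hoxa10 upstream start: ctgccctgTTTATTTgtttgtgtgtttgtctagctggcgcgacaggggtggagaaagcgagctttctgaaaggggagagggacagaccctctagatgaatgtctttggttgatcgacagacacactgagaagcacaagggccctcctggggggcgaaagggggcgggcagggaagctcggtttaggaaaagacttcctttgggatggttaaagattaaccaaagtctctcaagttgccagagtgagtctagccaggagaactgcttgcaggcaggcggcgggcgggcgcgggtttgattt
Hoxa10 downstream start: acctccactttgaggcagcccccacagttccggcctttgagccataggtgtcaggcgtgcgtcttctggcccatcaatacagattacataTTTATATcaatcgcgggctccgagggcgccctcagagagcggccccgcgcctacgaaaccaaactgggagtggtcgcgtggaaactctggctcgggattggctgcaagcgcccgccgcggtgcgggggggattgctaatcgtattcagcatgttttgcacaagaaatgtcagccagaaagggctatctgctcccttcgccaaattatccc
Hoxa7: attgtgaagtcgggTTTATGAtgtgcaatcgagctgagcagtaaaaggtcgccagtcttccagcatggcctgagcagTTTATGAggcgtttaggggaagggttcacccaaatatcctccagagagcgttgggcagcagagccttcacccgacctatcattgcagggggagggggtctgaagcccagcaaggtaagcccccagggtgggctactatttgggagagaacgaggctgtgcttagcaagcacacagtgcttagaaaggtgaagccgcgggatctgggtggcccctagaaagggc
Meis1: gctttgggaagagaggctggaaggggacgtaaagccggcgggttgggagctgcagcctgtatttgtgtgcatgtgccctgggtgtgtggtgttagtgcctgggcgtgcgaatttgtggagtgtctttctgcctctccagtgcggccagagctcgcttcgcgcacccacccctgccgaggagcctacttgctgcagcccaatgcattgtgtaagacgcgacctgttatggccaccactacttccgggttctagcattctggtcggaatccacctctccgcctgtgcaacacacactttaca

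The windows share little. TTTATNN was found in 3 of the 8 windows, with 2 matches in Hoxa7 and 1 in each Hoxa10 window, against 39.9% of all 32851 RefSeq windows of this length. TGATTTAT, the joint HOXA9 and PBX motif, which overlaps TTTATNN, was found in 0 of 8 against 0.977% of all, and TGATNNAT, a looser form that contains it, in 0 of 8 against 8.85%. TGACAG, the core bound by MEIS proteins, was found in 1 of 8 (Hoxa3) against 19.2%, and AAATAA, whose complement can overlap TTTATNN, in 1 of 8 (Hoxa10) against 18.8%. Both strands were searched. The windows differed in CG dinucleotides, with 4 in Hoxa9, 9 in Hoxa7, 12 and 21 in Hoxa10, 15 in Meis1, 20 in Hoxa3, 26 in Hoxa6 and 29 in Hoxa5, where the median over all windows was 7. A match is a run of letters and not a measured binding site, and the absence of one concerns only these windows.

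Libraries held between 7085894 and 8864919 counts. The introduced genes matched the labels. Nras stood at 82.0, 93.0 and 84.5 normalised CPM (counts brought to a common library size and scaled with TMM, the trimmed mean of M-values) with empty vectors and at 86.7, 92.5 and 85.4 with SETBP1, against 1427, 1423 and 1712 with NRAS and 1537, 1600 and 1539 with both. Setbp1 had 0 counts in all 6 libraries without the SETBP1 vector, 7, 7 and 5 with SETBP1 and 13, 17 and 11 with both. In normalised CPM it was at 0.843, 0.915 and 0.592 with SETBP1 and at 1.82, 2.18 and 1.48 with both, without overlap. The part of this difference in other differences between these groups was not tested. General blood cell markers (Ptprc, Vav1, Laptm5, Coro1a and Spi1) summed to between 2780 and 3411 CPM in every library. Hbb-bs, Hbb-bt, Hba-a1 and Hba-a2 of the red lineage are listed at 0 throughout. So are Pax5 of B cells, Cd3e and Cd8a of T cells and Cxcl12 of stroma. Other marker genes of these lineages had counts. By highest group mean, Klf1 (red lineage) was at 6.89 CPM with empty vectors and Cd79b (B cells) at 20.2 with SETBP1. Lck (T cells) was at 10.04 and Pecam1 (stroma and endothelium) at 229.5, each with NRAS. The genes at 0 therefore do not show that these lineages were absent. SETBP1 replicate 3 stood apart, at -69.0 on the second principal component against -11.9 to 26.3 for the other libraries, and the values it moves most are given without it too.

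Hoxa9, the member best known for blocking myeloid maturation, was 2.66 times as high on average with SETBP1 as with empty vectors, and 2.46 times as high with both as with NRAS. It stood at 18.3, 21.0 and 20.1 normalised CPM with empty vectors and at 53.0, 48.6 and 56.1 with SETBP1. With NRAS it stood at 14.9, 19.6 and 21.3, and with both at 43.2, 46.5 and 47.9. Every library with the SETBP1 vector was thus above every library without it, and the lowest SETBP1 library was above the highest of the group with both. The log2 fold change was 1.41 (SE 0.13) for SETBP1 against empty and 1.30 (SE 0.13) for both against NRAS.

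Hoxa10, the 5′ neighbour of Hoxa9 in the cluster, was less uniform. Its values were 4.31, 4.57 and 2.83 with empty vectors, 10.4, 11.8 and 4.14 with SETBP1, 3.04, 4.87 and 5.58 with NRAS, and 12.2, 15.2 and 14.7 with both. SETBP1 replicate 3 lay within the range of the empty group, while the libraries with both were above all others. Against empty, the log2 fold change with SETBP1 was 1.15 (SE 0.35), and 1.49 (SE 0.25) without SETBP1 replicate 3. For both against NRAS it was 1.64 (SE 0.34).

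Hoxa7 was also higher with the SETBP1 vector on either background, at lower levels. It stood at 5.2, 6.60 and 3.78 with empty vectors and at 10.6, 10.2 and 7.93 with SETBP1. With NRAS it was at 3.83, 3.11 and 2.28, and with both at 7.41, 10.1 and 5.65. SETBP1 did not overlap empty, nor both NRAS, but every pair of groups next to each other in the order NRAS, empty, both, SETBP1 overlapped. The log2 fold changes were 0.88 (SE 0.28) and 1.33 (SE 0.30).

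Hoxa5, a more 3′ member, was seen with 3 to 21 counts per library. It had 5, 9 and 3 counts with empty vectors, 18, 21 and 17 with SETBP1, 4, 3 and 6 with NRAS, and 14, 15 and 5 with both. It passed the filter on low counts only through libraries with the SETBP1 vector, so its presence among the tested genes and its difference are not separate facts. The log2 fold change was 1.70 (SE 0.50) for SETBP1 against empty, where the groups did not overlap, and 2.22 without empty replicate 2. For both against NRAS it was 1.39 (SE 0.55), with both replicate 3 inside the range of NRAS in normalised CPM.

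Hoxa3, Hoxa4 and Hoxa6 were too low to test and are given as counts, with no fold. Hoxa4 had 4, 2 and 2 counts with empty vectors, 3, 5 and 4 with SETBP1, 3, 8 and 1 with NRAS, and 6, 10 and 5 with both. Hoxa3 had 2, 4 and 0 counts with empty vectors and 4, 9 and 2 with SETBP1. With NRAS it had 0, 1 and 1, and with both 0, 1 and 6. Hoxa6 had at most 2 counts in a library. For each of Hoxa3 and Hoxa6, SETBP1 overlapped empty and both overlapped NRAS in normalised CPM. A difference between groups was not tested for them.

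**Figure D1:**
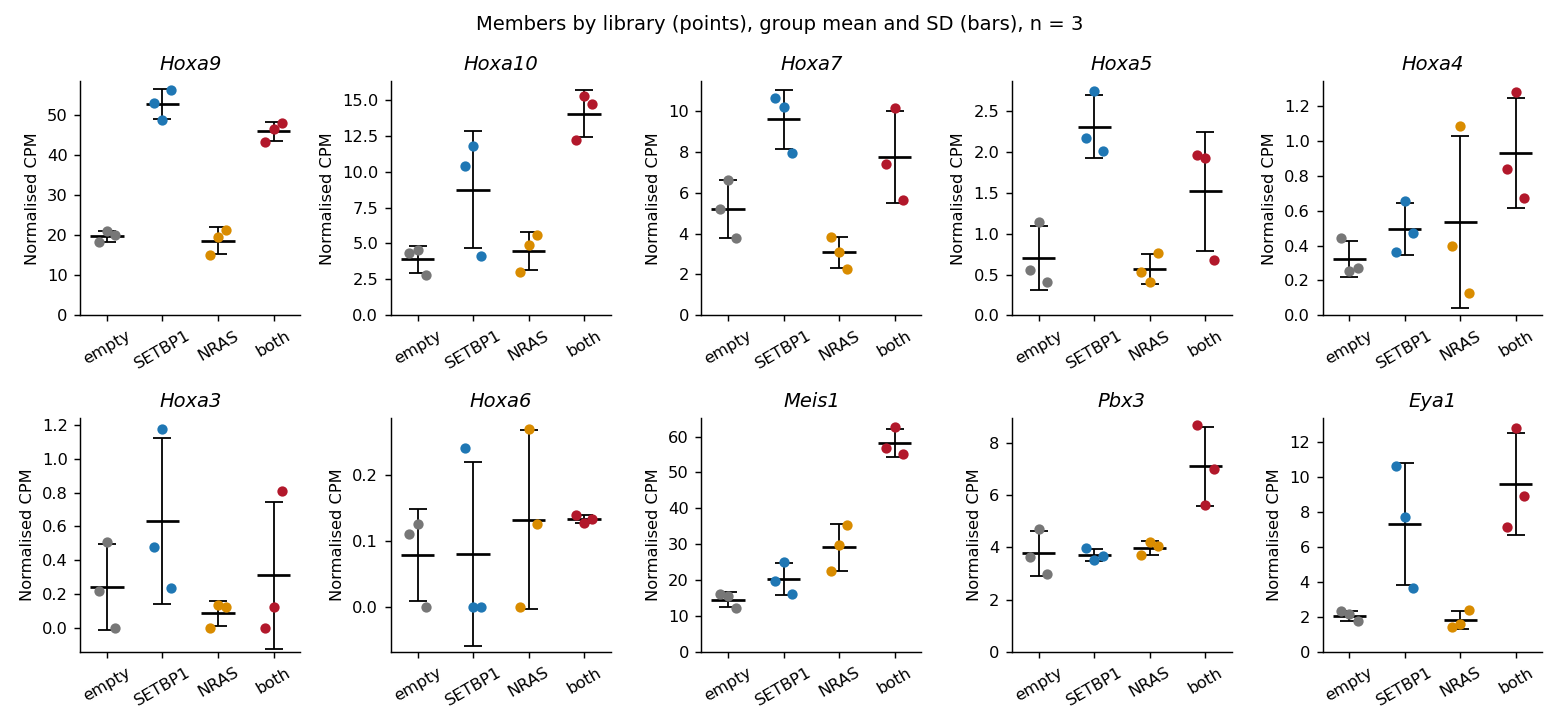
Normalised CPM of each of the 10 genes (vertical axes, separate scales) in the 4 groups (horizontal axis). Points are libraries, wide bars group means and whiskers SD (n = 3); whiskers of Hoxa3 and Hoxa6 reach below 0 because their counts are near 0. Hoxa9 separates the 6 libraries with SETBP1, at 43.2 and above, from the 6 without it, at 21.3 and below, whereas Meis1 and Pbx3 are highest with both.

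Eya1 had the largest ratio of means between SETBP1 and control among the 7 tested genes. It stood at 2.32, 2.16 and 1.75 normalised CPM with empty vectors and at 10.6, 7.71 and 3.67 with SETBP1. The values with NRAS were 1.45, 1.62 and 2.41, and those with both 7.13, 12.8 and 8.88. All 6 libraries with the SETBP1 vector were above all 6 without it. The log2 fold change was 1.80 (SE 0.39) for SETBP1 against empty, 2.12 (SE 0.31) without SETBP1 replicate 3, and 2.38 (SE 0.39) for both against NRAS. The ratios of means were 3.52 and 5.25.

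Meis1 differed in order from the Hoxa genes. It stood at 16.2, 15.5 and 12.3 with empty vectors and 19.9, 25.0 and 16.2 with SETBP1, where SETBP1 replicate 3 was above empty replicate 1 by less than the rounding of these values. With NRAS it stood at 22.5, 29.8 and 35.5, and with both at 56.9, 62.7 and 55.0. Both was above every other group without overlap, and NRAS overlapped SETBP1. Its log2 fold change was 0.47 (SE 0.19) for SETBP1 against empty, 0.31 without SETBP1 replicate 2 and 0.60 without SETBP1 replicate 3, and 0.99 (SE 0.18) for both against NRAS.

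Pbx3 stood apart in the group with both and in no other. Its values were 3.65, 4.70 and 2.97 with empty vectors, 3.97, 3.53 and 3.67 with SETBP1, 3.70, 4.19 and 4.06 with NRAS, and 8.67, 5.63 and 7.0 with both. The first 3 groups overlapped, and the lowest library with both was above all of them. Its log2 fold change was -0.02 (SE 0.26) for SETBP1 against empty, from -0.16 without empty replicate 3 to 0.17 without empty replicate 2, and 0.83 (SE 0.25) for both against NRAS.

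Of the 7 tested genes, 5 were above empty without overlap with SETBP1, where 16.7% of all 10993 tested genes were, and 6 were above NRAS without overlap with both, where 12.3% of all were. Hoxa7, Hoxa9, Meis1 and Eya1 did so on both backgrounds, as 4.96% of tested genes did. These contrasts were known when the genes were chosen, so nothing is read from the counts. The medians of the 7 log2 fold changes were 1.15 and 1.33, against -0.01 and 0.00 over all tested genes. The difference between the 2 SETBP1 changes, that with NRAS minus that without, was 0.85 (SE 0.37) for Pbx3, 0.52 (SE 0.26) for Meis1 and 0.58 (SE 0.56) for Eya1. It was 0.49 (SE 0.50) for Hoxa10, 0.45 (SE 0.41) for Hoxa7, -0.11 (SE 0.19) for Hoxa9 and -0.30 (SE 0.78) for Hoxa5. Single libraries moved most of these differences. That of Eya1 was 0.26 without SETBP1 replicate 3, 0.32 without both replicate 2 and 0.95 without SETBP1 replicate 1, and that of Hoxa10 was 0.15 without SETBP1 replicate 3, 0.27 without NRAS replicate 1 and 0.75 without SETBP1 replicate 2. Hoxa7 gave 0.24 without empty replicate 2, 0.27 without NRAS replicate 3 and 0.21 without both replicate 2. Hoxa9 ran from -0.25 without NRAS replicate 1 to -0.0081 without NRAS replicate 3, and Hoxa5 from -0.83 without empty replicate 2 to 0.047 without both replicate 3. Over all tested genes 0.0455% passed a test of this difference.

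Markers of maturing cells moved with the same vector. Late neutrophil genes such as Ltf, Camp and Ngp were lower in 7 of 9 tested for SETBP1 against empty and in 7 of 9 for both against NRAS (edgeR quasi-likelihood test, Benjamini-Hochberg adjusted p under 0.05). Over all tested genes 6.55% and 1.38% were lower in these comparisons, and 8.31% and 0.528% higher. Mmp8 of this list went the other way on average for both against NRAS, from 119.1 CPM with NRAS to 192.9 with both. The summed level of the late neutrophil genes ran from 6606 to 7377 CPM with empty vectors, 3048 to 4761 with SETBP1, 2000 to 2650 with NRAS and 810.4 to 920.3 with both. Ngp alone averaged 4252, 2162, 1103 and 258.4 CPM in these groups. Of the stem and progenitor genes other than Meis1, 2 rose and 1 fell of 9 for SETBP1 against empty and 0 passed for both against NRAS (3 at an unadjusted p under 0.05, 1 with DESeq2 and 0 with limma-voom). Their summed level was 710.3 to 858.6 CPM with empty vectors, 952.9 to 1223 with SETBP1, 578.9 to 731.9 with NRAS and 706.3 to 749.8 with both. Mast cell and basophil genes fell in 5 of 7 and 3 of 7, early granule genes in 2 of 5 and 4 of 5, and monocyte genes rose in 3 of 8 in each, with 1 falling for both against NRAS. The part of these cell markers in the differences of the Hoxa genes, Meis1, Pbx3 and Eya1 was not tested, and in bulk RNA more cells of a type and more RNA per cell cannot be told apart.

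The mutant NRAS answered a separate question, since its average compares other sums of the libraries than the SETBP1 changes. This test too was chosen with earlier results of these data known. Averaged over SETBP1 status, Meis1 rose, Pbx3 rose by less, Hoxa7 fell, and Hoxa9, Hoxa10, Hoxa5 and Eya1 did not pass the test. That is 2 higher and 1 lower of 7, where 51.7% of all tested genes passed, 26% higher and 25.7% lower (2856 and 2828 genes; 2131 and 3502 with library size as the only scaling). A share of 3 in 7 is close to that background. The median log2 fold change of the 7 genes was 0.10, against -0.00 over all tested genes.

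Meis1 rose by log2 1.26 with NRAS (SE 0.13; edgeR quasi-likelihood test, Benjamini-Hochberg adjusted p 3.15e-06), and the estimate ran from 1.17 to 1.34 over all alternatives, with the call kept in each. NRAS was above empty without overlap for 1 of the 7 tested genes, Meis1, where 28.4% of all tested genes were, and below it for none, where 27.9% were. The log2 fold change was 0.99 (SE 0.19) for NRAS against empty and 1.52 (SE 0.18) for both against SETBP1. With both, Meis1 was at 58.2 ± 4.0 normalised CPM (SD, n = 3), against 14.6 ± 2.07 with empty vectors, 20.3 ± 4.39 with SETBP1 and 29.2 ± 6.53 with NRAS.

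Pbx3 rose by log2 0.50 with NRAS (SE 0.18, adjusted p 0.0337), a call that did not hold throughout. The change was 0.08 (SE 0.26) for NRAS against empty and 0.93 (SE 0.25) for both against SETBP1. The smaller of these was -0.07 without empty replicate 3, 0.26 without empty replicate 2 and -0.02 with library size scaling. The adjusted p of Pbx3 was 0.0710 without empty replicate 1, 0.0876 without empty replicate 3, 0.0614 without SETBP1 replicate 2, 0.0686 without NRAS replicate 2, 0.0665 without NRAS replicate 3, 0.0924 without both replicate 1 and 0.0563 without both replicate 3. It was 0.0682 with library size scaling and 0.0531 with upper-quartile scaling. The direction was the same in all of these.

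Hoxa7 fell by 0.53 on the log2 scale with NRAS (SE 0.21, adjusted p 0.0429), with group means of 3.08 ± 0.776 against 5.19 ± 1.41 normalised CPM for NRAS and empty, and 7.72 ± 2.25 against 9.57 ± 1.44 for both and SETBP1 (SD, n = 3). This call also depended on single libraries. The adjusted p of Hoxa7 was 0.0694 without empty replicate 1, 0.115 without empty replicate 2, 0.0698 without SETBP1 replicate 1, 0.0691 without SETBP1 replicate 2, 0.0749 without NRAS replicate 2, 0.107 without NRAS replicate 3, 0.0801 without both replicate 1 and 0.0997 without both replicate 3. It was 0.0521 with no filter on low counts, and the direction was the same in all of these.

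The other 4 genes did not pass. The averaged log2 change of Hoxa9 with NRAS was -0.14 (SE 0.09, adjusted p 0.226; -0.07 without NRAS replicate 1 and -0.22 with library size scaling), with -0.08 (SE 0.14) for NRAS against empty and -0.20 (SE 0.13) for both against SETBP1. Against empty, Hoxa9 was at 0.05 without NRAS replicate 1, -0.20 without NRAS replicate 3 and -0.18 with library size scaling. Hoxa10 gave 0.44 (SE 0.25, adjusted p 0.153), which was 0.27 without SETBP1 replicate 3. Hoxa5 gave -0.45 (SE 0.38, adjusted p 0.346), which was -0.19 without empty replicate 2 and -0.27 without both replicate 3. Eya1 gave 0.10 (SE 0.28, adjusted p 0.783) and took the other sign, -0.06, without SETBP1 replicate 3, and -0.03 both without NRAS replicate 3 and without both replicate 2. A p that misses the threshold does not show that the levels were alike.

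Between both and SETBP1, Hoxa10, Meis1 and Pbx3 were above without overlap, 3 of 7 against 24.8% of all tested genes, and Hoxa5 and Hoxa9 were below, 2 of 7 against 24% of all. The NRAS markers moved too: of the late neutrophil genes 6 fell and 2 rose of 9 with NRAS averaged over SETBP1 status, and of the stem and progenitor genes other than Meis1, 4 fell and 2 rose of 9. All 5 genes of granule-forming progenitors fell, with a median log2 fold change of -1.43, as did 5 of 6 megakaryocyte genes (median -1.64), 5 of 7 mast cell and basophil genes, where 1 rose (median -1.99), and 6 of 8 monocyte and macrophage genes, where 1 rose (median -0.69). Over all tested genes 26% rose and 25.7% fell with NRAS. The part of these markers in the change of Meis1 was not tested.

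**Figure D2:**
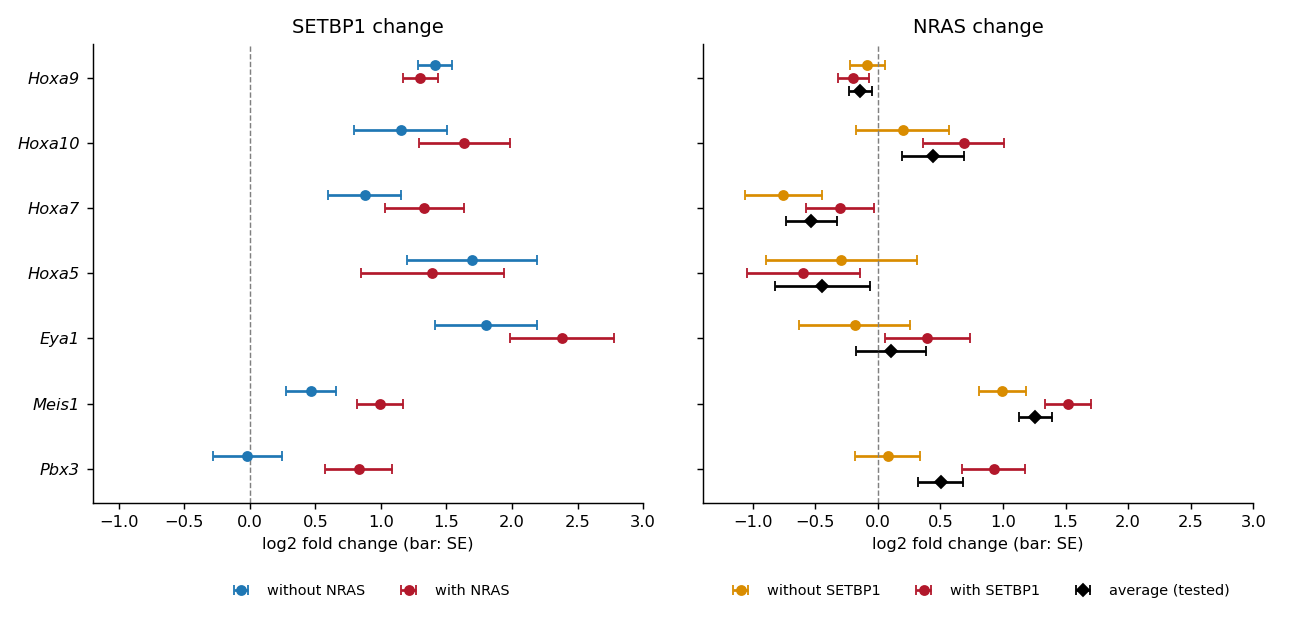
Log2 fold changes (horizontal axes) of the 7 tested genes, with bars of 1 SE. The left panel gives SETBP1 without and with NRAS, the right panel NRAS without and with SETBP1 and, as diamonds, their average, which was tested. Hoxa9 lies near 1.41 and 1.30 on the left and close to 0 on the right, while Meis1 lies at 0.99 and 1.52 on the right.

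The order of groups differed between the genes. From low to high it was NRAS, empty, both, SETBP1 for Hoxa5, Hoxa7 and Hoxa9, and of these neighbours empty and both were apart for Hoxa9, and both and SETBP1 were apart for Hoxa9 and Hoxa5. It was empty, NRAS, SETBP1, both for Hoxa10 and NRAS, empty, SETBP1, both for Eya1. For Hoxa10 only the last step, and for Eya1 only the step from empty to SETBP1, was free of overlap. It was empty, SETBP1, NRAS, both for Meis1 and SETBP1, empty, NRAS, both for Pbx3, where the step to both was free of overlap for each. Between empty and SETBP1, Meis1 was apart too.

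To compare levels between genes, normalised CPM was divided by the kb of annotated exon. On this scale Hoxa9 had the highest level in every group, with 3.54 ± 0.247 CPM per kb with empty vectors, 9.42 ± 0.673 with SETBP1, 3.34 ± 0.591 with NRAS and 8.22 ± 0.430 with both (SD, n = 3). Hoxa7 was at 1.81 ± 0.491, 3.33 ± 0.50, 1.07 ± 0.270 and 2.69 ± 0.781 CPM per kb in the same order of groups, and Hoxa10 at 1.19 ± 0.287, 2.68 ± 1.24, 1.37 ± 0.401 and 4.29 ± 0.498. The more 3′ members were lower, with Hoxa5 at most 1.23 ± 0.206 (SETBP1) and Hoxa4 at most 0.584 ± 0.197 CPM per kb (both). Meis1, per kb, was at 1.39 ± 0.197 with empty vectors, 1.93 ± 0.417 with SETBP1, 2.78 ± 0.620 with NRAS and 5.53 ± 0.380 with both, and its mean lay above those of Hoxa7 and Hoxa10 with NRAS and with both.

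**Figure D3:**
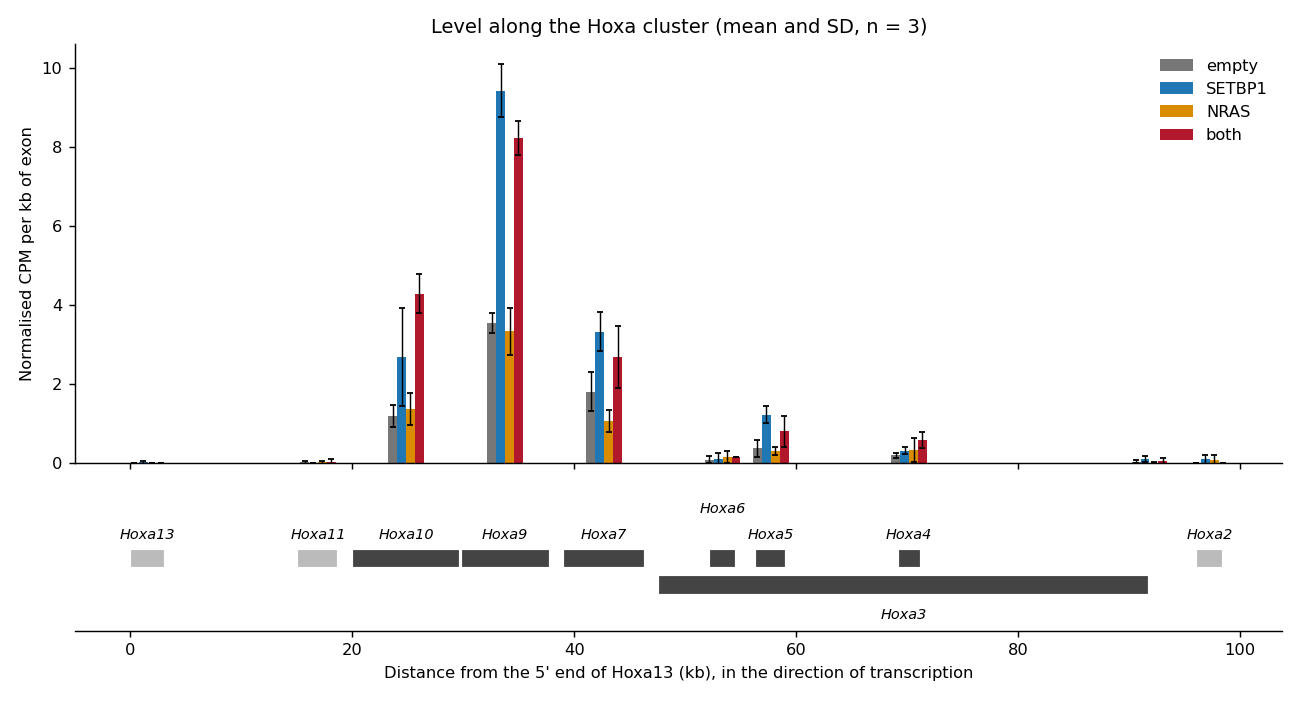
Normalised CPM per kb of exon (vertical axis; bars are means, whiskers SD, n = 3) along the Hoxa cluster, by distance in kb from the 5′ end of Hoxa13 in the direction of transcription, with gene bodies below (dark for the genes described, pale for Hoxa2, Hoxa11 and Hoxa13). The bars of Hoxa3, whose longest form covers its neighbours, stand at its 3′ end. The signal lies over Hoxa10, Hoxa9 and Hoxa7, with Hoxa9 the tallest in each group, from 3.34 to 9.42.

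Sums and shares over the cluster were compared next. The 7 Hoxa genes together gave 27.4 to 34.2 normalised CPM with empty vectors, 70.9 to 77.2 with SETBP1, 22.7 to 30.3 with NRAS and 65.7 to 75.3 with both. Hoxa9 took 61.3% to 79.1% of these counts in every library, the highest share being that of SETBP1 replicate 3. Hoxa10 took 10.3% to 14.8% with empty vectors, 13.4%, 15.7% and 5.84% with SETBP1, 13.4% to 18.4% with NRAS and 18.5% to 20.8% with both, so that the group with both lay above all other libraries by a narrow margin over NRAS replicate 3. The ratio of Meis1 to Hoxa9 in normalised CPM was 0.611 to 0.885 with empty vectors, 0.289 to 0.513 with SETBP1, 1.5 to 1.67 with NRAS and 1.15 to 1.35 with both. These 4 ranges did not overlap.

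**Figure D4:**
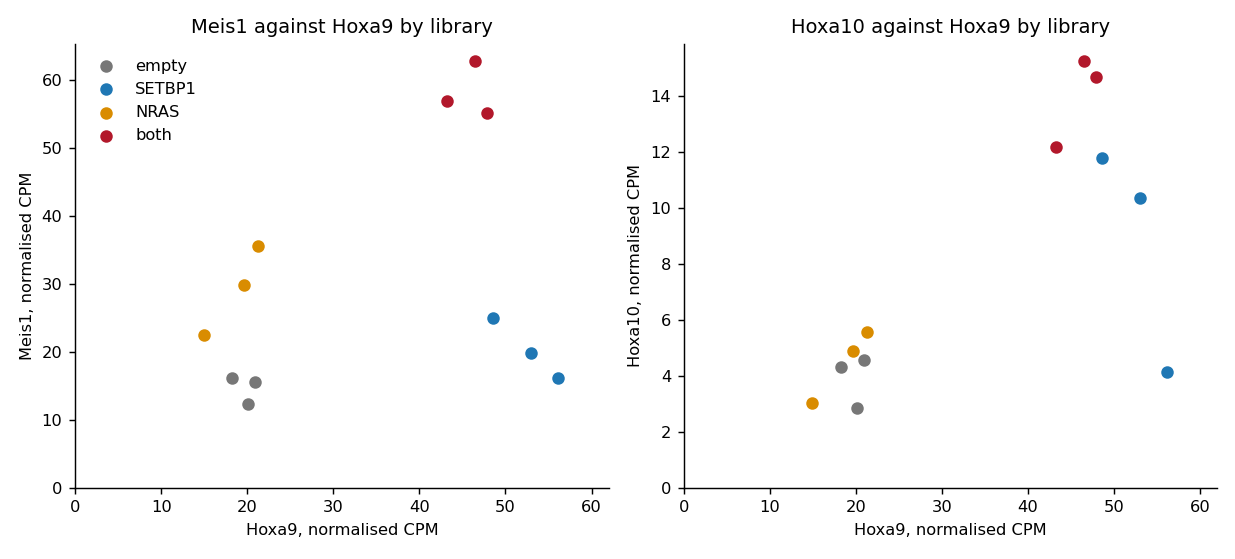
Normalised CPM of Meis1 (left, vertical axis) and Hoxa10 (right, vertical axis) against Hoxa9 (horizontal axes) in the 12 libraries, 1 point each, coloured by group. On the left the 4 groups take separate areas, with both high for each gene. For Meis1 alone, NRAS (22.5 to 35.5) overlaps SETBP1 (16.2 to 25.0). On the right SETBP1 replicate 3, at 56.1 for Hoxa9 and 4.14 for Hoxa10, lies away from the other SETBP1 libraries.

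The genes varied together to different degrees. Over the 12 libraries, Pearson's r of log2 CPM for the 21 pairs of tested genes ran from 0.108 (Hoxa7 and Meis1) to 0.933 (Hoxa10 and Eya1), with a median of 0.686. These values share the 4 groups and the depth of the libraries. After group means were subtracted, r ran from -0.463 to 0.881 (Hoxa10 and Meis1), and the r of Hoxa10 and Eya1 was 0.849, or 0.616 without SETBP1 replicate 3. Hoxa9 and Hoxa10 had an r of 0.760 over the 12 libraries and 0.944 without that library.

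Among 9352 other genes with a mean of at least 5 CPM, 8 were named for the profile most like the mean of the 7 tested genes, by Pearson's r of log2 CPM over the 12 libraries. They were Mt1 (r 0.890), Igf2bp3 (0.873), Foxp1 (0.867), Shmt2 (0.853), Lgmn (0.852), Slamf8 (0.847), Car13 (0.846) and Xylt2 (0.845). Igf2bp3, an RNA-binding protein, stood at 3.89 ± 0.445 normalised CPM with empty vectors, 8.60 ± 2.13 with SETBP1, 5.07 ± 1.54 with NRAS and 10.1 ± 1.80 with both (SD, n = 3). The genes most like Hoxa9 alone were Car2 (0.942), Txndc5 (0.925) and Lgmn (0.916), those most like Meis1 were Crem (0.959), Siglec1 (0.956) and Grap (0.953), and those most like Eya1 were Gdpd1 (0.875), Parp8 (0.875) and St8sia4 (0.862). Lgmn, which encodes the lysosomal protease legumain, was thus named both for Hoxa9 and for the mean.

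Further Hox genes were examined. Hoxa2, Hoxa11 and Hoxa13 had at most 3 counts in a library, and noncoding genes of the locus were not analysed here. Hoxb4 was the only Hoxb gene tested and passed in none of the 3 comparisons (edgeR; log2 -0.47, 0.76 and -0.29 for NRAS averaged, SETBP1 against empty and both against NRAS; 0, 1 and 0 at an unadjusted p under 0.05, and 0 with DESeq2 and limma-voom). None of the 18 Hoxc and Hoxd genes had more than 4 counts in a library, and Cdx1, Cdx2 and Cdx4, caudal factors that activate Hox genes, are listed at 0.

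None of the tested genes beside the cluster passed with SETBP1. Of 10 flanking genes, 8 were tested, and 0 passed for SETBP1 against empty, where 14.9% of all tested genes did (8.31% higher and 6.55% lower), and 0 for both against NRAS, where 1.91% did (0.528% higher and 1.38% lower; edgeR). Their median log2 fold changes were 0.01 and 0.04. At an unadjusted p under 0.05 there were 2 and 0, and DESeq2 and limma-voom called 0 in each. With NRAS, 3 rose and 2 fell of 8, beside 51.7% of all tested genes that passed, among them Creb5 (1.69, SE 0.28, adjusted p 1.93e-04) and Snx10 (-0.64, SE 0.08, adjusted p 2.51e-05).

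Other TALE genes were tested as partners of the same kind. Of 7, none rose and 2 fell with NRAS, Pknox2 by 2.11 and Pbx4 by 1.90 on the log2 scale (adjusted p 0.00394 and 0.00302), each from about 2 CPM or less. Over all tested genes 26% rose and 25.7% fell with NRAS. For SETBP1 against empty 14.9% of all passed, and for both against NRAS 1.91%. For SETBP1 against empty 1 rose, Tgif1, a repressor of this class, by 0.52 (SE 0.14, adjusted p 0.0244), with adjusted p 0.0559, 0.0690 and 0.0929 without empty replicates 1, 2 and 3. For both against NRAS 0 passed, also at an unadjusted p under 0.05 and with DESeq2 and limma-voom. Eya3, a relative of Eya1, rose by log2 0.51 with NRAS (adjusted p 0.00136). Dach1, a transcriptional corepressor, fell by 1.18 for SETBP1 against empty (adjusted p 0.0485), a call lost in 15 of 22 alternatives, with adjusted p up to 0.185. Among them were the fits without empty replicates 1, 2 and 3 (0.124, 0.0719 and 0.153), SETBP1 replicate 2 (0.0890), NRAS replicates 1, 2 and 3 (0.0619, 0.0691 and 0.0603) and both replicates 1, 2 and 3 (0.0696, 0.0660 and 0.0681). The change of Dach1 was -1.79 without SETBP1 replicate 1 and -0.75 without SETBP1 replicate 3, past the threshold in each.

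Genes of the chromatin complexes that act on Hox loci were examined next. Of 16 genes of the MLL complex, which deposits activating methylation on Hoxa chromatin, and its DOT1L partners, 0 passed for SETBP1 against empty and 0 for both against NRAS, where 14.9% and 1.91% of all tested genes did. With NRAS 5 rose and 2 fell, beside 51.7% of all tested genes that passed in either direction. In the SETBP1 comparisons 4 and 1 were at an unadjusted p under 0.05, and DESeq2 and limma-voom called 0. Dot1l, a histone methyltransferase, rose by log2 0.63 (adjusted p 0.00284), Wdr5 by 0.53 (adjusted p 2.44e-04) and Rbbp5 by 0.47 (adjusted p 0.00121), while Men1, the MLL cofactor menin, fell by 0.37 (adjusted p 4.54e-04). Of 11 Polycomb genes, whose products silence Hox clusters, 0 passed in each SETBP1 comparison, against the same 14.9% and 1.91% of all tested genes (1 in each at an unadjusted p under 0.05, and 0 with DESeq2 and limma-voom). With NRAS 5 rose, such as Bmi1 by 0.51 (adjusted p 2.11e-04) and Jarid2 by 0.50 (adjusted p 0.00819), and 1 fell, Ring1, by 0.48 (adjusted p 0.0141; by 0.30 without SETBP1 replicate 3), against the same 51.7% of all tested genes.

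Reported targets of HOXA9 and MEIS1 were followed in the same comparisons. Of 16 tested, 9 rose and 3 fell with NRAS, beside 51.7% of all tested genes that passed, with a median log2 fold change of 0.54. Ccl3, a chemokine, rose by log2 3.66 (edgeR, adjusted p 7.86e-11) and Cd34, a progenitor surface protein, by 1.14 (adjusted p 6.89e-06). Pim1, a kinase, fell by 1.76 (adjusted p 1.58e-07). Trib2, a pseudokinase, rose by 1.98 (adjusted p 0.00911, and by 4.18 without SETBP1 replicate 1). It averaged 0.811 and 0.321 CPM with empty vectors and SETBP1, against 2.47 with NRAS and 1.76 with both. Trib2 passed the filter on low counts mainly through libraries with NRAS, so its presence among the tested genes and its rise are not separate facts. For SETBP1 against empty 4 rose and 1 fell, where 8.31% of all tested genes rose and 6.55% fell, with a median of -0.03 over the 16. Ccl3 rose by 1.52 (adjusted p 8.28e-04), Sox4 by 0.76 (adjusted p 0.00303) and Lmo2 by 0.66 (adjusted p 0.00127), both regulators of early blood cells. Igf1r, a growth factor receptor, fell by 0.66 (adjusted p 0.0312, and 0.0868, 0.0658 and 0.111 without empty replicates 1, 2 and 3; by 0.43 without SETBP1 replicate 3). For both against NRAS 0 of 16 passed with edgeR, where 1.91% of all tested genes did, with 6 at an unadjusted p under 0.05, 4 with DESeq2, 1 with limma-voom and a median of -0.06. Lmo2, Mef2c, Pim1 and Ccl3 missed the threshold narrowly, at adjusted p 0.0626, 0.0626, 0.0720 and 0.0860 (edgeR). The lists of other genes were not counted with only the groups compared, where 883 genes passed for both against NRAS rather than 210.

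Of 4 further genes, the SETBP1 partner Set and the reported SETBP1 targets Mecom, Runx1 and Myb, 1 rose and 2 fell with NRAS. Over all tested genes 51.7% passed, 26% higher and 25.7% lower. Set rose by log2 0.50 (adjusted p 1.83e-05), Myb fell by 0.79 (adjusted p 2.54e-06) and Runx1 fell by 0.66 (adjusted p 1.23e-04). Runx1, a regulator of blood formation, also fell for SETBP1 against empty, by 0.54 (adjusted p 0.0249, and 0.0705, 0.0510 and 0.109 without empty replicates 1, 2 and 3). Of these 4 genes 0 passed for both against NRAS, where 1.91% of all tested genes did, with 1 at an unadjusted p under 0.05 and 0 with DESeq2 and limma-voom.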

How the data were processed

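RNA of 12 libraries, 3 in each of 4 groups, was sequenced. The authors deposited whole-number counts per gene symbol, not normalised, in 1 table; per the submitters' processing notes STAR, DESeq2 and mm10 were used, with no version or role given here. The counting tool, annotation, strand setting and any filter are not given in the sources used here. From the counts, log2 fold changes were computed with edgeR 4.0.16 (R 4.3.3): TMM scaling, filterByExpr (minimum count 10, minimum total 15), 4 group means fitted over all 12 libraries, and two-sided quasi-likelihood tests with Benjamini-Hochberg adjustment over 10993 genes at 0.05. SE is the absolute log2 change divided by the square root of F. Log2 CPM for correlations used a prior count of 2. Steps were tested on simulated data.

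The 10 genes, the lists and the tests were chosen with earlier results of these data known. For them only the NRAS change averaged over SETBP1 status was tested; lists of other genes were tested in 3 comparisons. All 10 genes were named, plus up to 4 genes past the threshold with the largest change per list and comparison, listed Hox genes with a count (some listed genes are not reported here), the 8 genes most like the mean profile and 3 most like Hoxa9, Meis1 and Eya1. Id2, outside that rule, is named because its groups lay apart in opposite directions. Positions and exon lengths came from GENCODE M21 and start windows from RefSeq. Total counts ran from 7085894 to 8864919 per library, and genes under about 10 counts were left untested. Alternatives were DESeq2 1.42.0, limma-voom (limma 3.58.1), other scalings and filters (including a mean count of at least 50), an adjusted p of 0.01, only the groups compared, a replicate block and leaving out each library.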

Additional observations from a re-analysis of the deposited data

Results flagged for a closer look

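Id2 is an inhibitor of basic helix-loop-helix factors on the list of reported HOXA9 and MEIS1 targets. Its libraries with and without SETBP1 lay apart in opposite directions on the 2 backgrounds. It stood at 69.5, 81.5 and 64.6 normalised CPM with empty vectors and at 90.0, 82.2 and 150.02 with SETBP1, every SETBP1 library above every empty library. With NRAS it stood at 210.2, 202.0 and 205.0, and with both at 181.4, 171.2 and 174.9, every library with both below every NRAS library. The log2 fold change was 0.58 (SE 0.17, adjusted p 0.0400, edgeR) for SETBP1 against empty. For both against NRAS it was -0.23 (SE 0.17, adjusted p 0.731, edgeR), which did not pass. Id2 was picked because its groups lay apart in these values, so the interaction test is not separate support. The interaction was -0.81 on the log2 scale (SE 0.24, edgeR quasi-likelihood test, Benjamini-Hochberg adjusted p 0.253), which did not pass the threshold that 0.0455% of tested genes passed. The high value of SETBP1 replicate 3, the library that stood apart, lies in this contrast. Without it the interaction of Id2 was smaller but less variable, at -0.49 (SE 0.11), and passed with an adjusted p of 0.0464 (edgeR). Over the other 19 alternatives, all chosen for Id2 after seeing the data, the interaction ran from -0.97 to -0.74 with adjusted p from 0.0782 to 0.482.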

How the results depend on the processing

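Over 20 alternatives the Meis1 change with NRAS kept its direction and call; the call of Hoxa7 was lost in 9 of 20 and that of Pbx3 in 9 of 19. Of the 7 tested genes, 3 passed with NRAS, 1 at an adjusted p of 0.01 and 1 to 3 with single libraries left out. Eya1 ran from -0.057 (without SETBP1 replicate 3) to 0.28 with single libraries left out, with -0.03 both without NRAS replicate 3 and without both replicate 2. For SETBP1 against empty, 1633 genes passed, 110 with only the groups compared, 379 at an adjusted p of 0.01, and 390 (without empty replicate 3) to 3191 (without SETBP1 replicate 1) with single libraries left out. For both against NRAS, 210 passed, 379 with DESeq2, 883 with only the groups compared, 86 at an adjusted p of 0.01, and 93 (without both replicate 1) to 836 (without SETBP1 replicate 3) with single libraries left out. The cause was not tested. With the NRAS change 4256 to 6627 genes passed over all alternatives. Hoxa5 moved without empty replicate 2, to 2.22 for SETBP1 against empty, 0.22 for NRAS against empty and -0.83 for the difference between SETBP1 changes. Scaling moved the median of all genes by at most 0.09. Genes under about 10 counts, such as Hoxa3, Hoxa4 and Hoxa6, are limited by depth.

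What the replicate numbers stand for is not in the labels. Same-numbered libraries of different groups had an r of deviations from -0.127 to 0.124 (18 pairs), and 1 of 12 libraries correlated best with its own number. With 3 libraries per group, these values cannot show whether same-numbered libraries share a mouse, an infection or a batch. With a replicate block 5491 genes passed for NRAS, 1177 for SETBP1 against empty and 164 for both against NRAS, and 3 of the 7 genes passed with NRAS.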
